A study of Mus musculus with 8 samples.

Results

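The small-RNA profiles of mouse liver held 327 entries annotated as known piRNAs, of which 68 reached at least 1 tag per 1000000 tags of the library (CPM) in at least 4 of the 8 libraries. These 68 entries are described here, across Snd1 knockout (KO) and wild type (WT) livers. The entries were chosen by their CPM level alone, over both genotypes together, so that the levels are given as a description. No entry passed it through 4 libraries of 1 genotype and none of the other (0 of 68). The question of the comparison is whether loss of Snd1 goes with a change in these entries in liver.

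Small RNA was sequenced from the left liver lobe of 4 Snd1 KO and 4 WT male C57BL/6N mice aged 8 to 12 weeks, 1 library per mouse, taken around noon without fasting. Snd1 KO mice lacked the first exon of Snd1 in every tissue. The floxed allele was made in embryonic stem cells, the exon was removed with Cre under the ubiquitous CAG promoter, and the line was crossed onto C57BL/6N. WT mice carried both intact alleles and came from the same breeding of heterozygous parents. Since only RNA of 18 to 30 bases was sequenced, the deletion could not be checked in these libraries.

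piRNAs are small RNAs carried by PIWI proteins, a germline branch of the Argonaute family. They guide the silencing of transposons in the testis and ovary, and are cut from long single-stranded precursors without Dicer. Snd1, also named Tudor-SN, has a Tudor domain, of a family that binds methylated arginines and lysines, next to its staphylococcal nuclease-like domains. The authors cite work that links the Drosophila protein, through its contact with Piwi, to sperm development and transposon silencing. Liver is not a tissue known for piRNA production, and a database entry names a sequence that was once seen as a piRNA, not its source in a given sample. Sequences and genomic positions of the entries were not used here, so the features by which piRNAs are recognised, their length and a first uridine, were not checked.

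Library totals were between 21708307 and 27526162 tags in KO livers and between 16223610 and 26158678 tags in WT livers. At this depth 1 CPM stood for 16.2 to 27.5 tags, and the 68 entries together for 26797 to 89355 tags per KO library and 45985 to 68209 per WT library. Known miRNAs took 57.9 to 77.6% of the tags in KO livers and 62.6 to 78.7% in WT livers. The liver marker miRNAs miR-122-5p, miR-192-5p and miR-194-5p summed to 250202 to 381007 CPM in KO livers and 242815 to 373650 CPM in WT livers. This sum is carried by miR-122-5p, and miR-192-5p and miR-194-5p differed from it. miR-194-5p had 2678, 6905, 8744 and 14103 CPM in KO livers and 14568, 10320, 12639 and 13264 CPM in WT livers. Only KO replicate 4 lay within the WT range of miR-194-5p, and the same was true of miR-192-5p. miR-192-5p had 22982, 22360.5, 20948.5 and 25123 CPM in KO livers and 25043, 30857, 24034 and 29369 CPM in WT livers. In both miRNAs the other KO livers were below every WT liver, whereas miR-122-5p overlapped more widely. A list of 12 miRNAs of male germ cells summed to 1.66 to 3.97 CPM in KO livers and 2.58 to 3.63 CPM in WT livers, and 10 of the 12 never reached 1 CPM. 1 library stood apart in the piRNA entries, KO replicate 4, and results that rest on it are given with and without it.

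All known piRNA entries together made up 0.112 to 0.414% of the tags of a library, and the 68 entries held 99.4 to 99.6% of that. Of the 259 entries outside the rule, 250 never reached 1 CPM, 7 reached it in 1 or 2 libraries and 2 in exactly 3, and 166 of the 327 were listed in 1 library only. Within the 68, 61 were listed in all 8 libraries and 35 were at 1 CPM or more in all 8. At the lower edge, mmu_piR_011141 was just inside with 0.97, 1.34, 1.89 and 0.79 CPM in KO livers and 0.65, 1.11, 1.05 and 0.48 CPM in WT livers. The entry just outside, mmu_piR_024749, had 0.92, 1.63, 1.24 and 0.25 CPM in KO livers and 0, 1.07, 0 and 0.21 CPM in WT livers.

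The levels were very uneven. By the mean of the 8 libraries, 7 entries were at 100 CPM or more, 18 between 10 and 100 CPM and 43 below 10 CPM, with a median of 7.28 CPM. The 5 most abundant entries held 66.0% of the summed mean CPM and the 10 most abundant 81.6%. The lead entry, mmu_piR_000691, had 1375, 634, 471 and 472 CPM in KO livers and 669, 396, 919.5 and 759.5 CPM in WT livers. KO replicate 1 was the highest and the other 3 KO livers lay within the WT range, so the groups overlapped. Next came mmu_piR_005109, with 600.4, 1028, 482 and 8.50 CPM in KO livers and 493, 67.8, 921 and 641 CPM in WT livers. A single library in each genotype was far below its group, KO replicate 4 and WT replicate 2. mmu_piR_017405 had 251, 76.5, 192 and 114 CPM in KO livers and 92.1, 39.8, 635 and 328 CPM in WT livers, the widest spread among WT mice of the 5 most abundant entries in proportion to the mean.

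**Figure D1:**
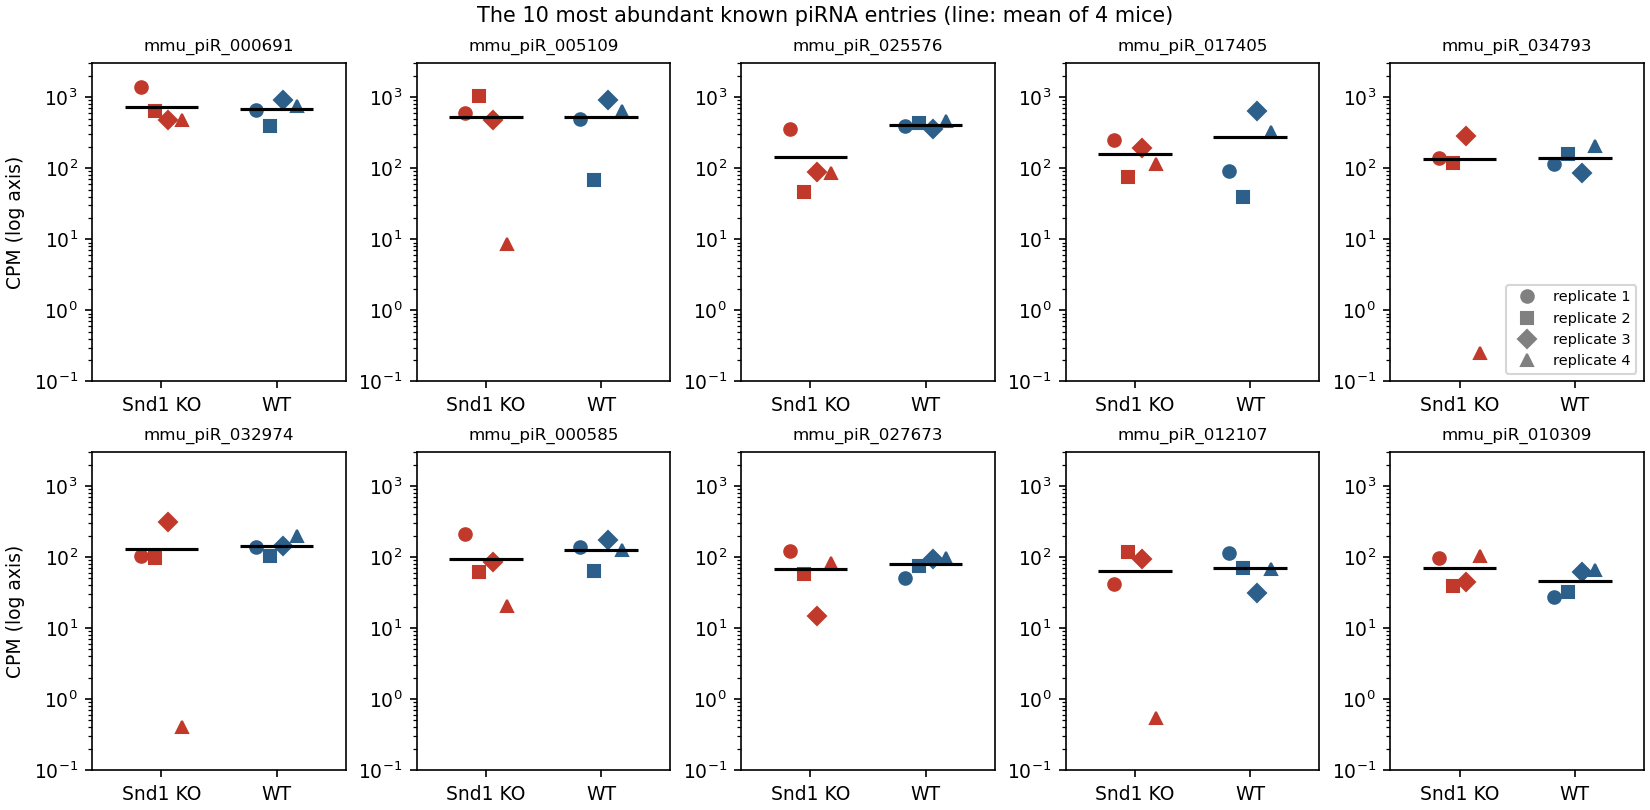
CPM on a log axis of the 10 most abundant known piRNA entries, 1 panel each, in Snd1 KO livers (red, left) and WT livers (blue, right); each symbol is 1 mouse, its shape the replicate number, and the line the mean of 4 mice. mmu_piR_034793, mmu_piR_032974 and mmu_piR_012107 are below 1 CPM in KO replicate 4 alone, and mmu_piR_025576 is low in KO replicates 2, 3 and 4.

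The summed level of the 68 entries did not differ beyond the spread between mice. It was 4116, 2789, 2598 and 1110 CPM in KO livers and 2637, 1758, 4062 and 3645 CPM in WT livers. KO replicate 1 was the highest of all 8 and KO replicate 4 the lowest, so that the KO group enclosed the WT group. The means were 2654 ± 1230 CPM in KO livers and 3026 ± 1035 CPM in WT livers (SD, n = 4 each), a log2 ratio of -0.19 (p = 0.657, two-sided exact permutation test over 70 assignments, whose smallest p is 0.0286). All 5 measures per library tested in this way had an adjusted p of 1 (Benjamini-Hochberg). Without KO replicate 4 the log2 ratio was 0.066, on the other side of 0 (exact permutation p = 0.8). Fewer cells of a type and less RNA per cell cannot be told apart in such bulk samples.

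The other measures per library did not differ beyond the spread between mice either. Without the 5 most abundant entries the sum was 1393, 887, 1083 and 431 CPM in KO livers and 881, 665, 1143 and 1247 CPM in WT livers (exact permutation p = 0.914). The median entry was at 2.59 ± 0.79 in KO livers and 2.57 ± 0.45 in WT livers on the log2(CPM + 1) scale (SD, n = 4 each, exact permutation p = 1). The number of known piRNA entries at 1 CPM or more, counted over all 327, was 67, 65, 66 and 42 in KO livers and 62, 60, 68 and 70 in WT livers (exact permutation p = 0.686). 3 of the 4 KO livers lay within the WT range of this number, and KO replicate 4 lay below it. Without KO replicate 4 the differences, KO minus WT, were 0.38 for the median entry (exact permutation p = 0.371) and 1 for the number of entries (exact permutation p = 0.743), and the log2 ratio of the sum without the 5 most abundant was 0.19 (exact permutation p = 0.514). With that library they were 0.03, -5 and -0.05. The share of the summed CPM in the 5 most abundant entries was 63.5 ± 4.51% in KO livers and 66.6 ± 3.99% in WT livers (SD, n = 4 each, exact permutation p = 0.371).

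**Figure D2:**
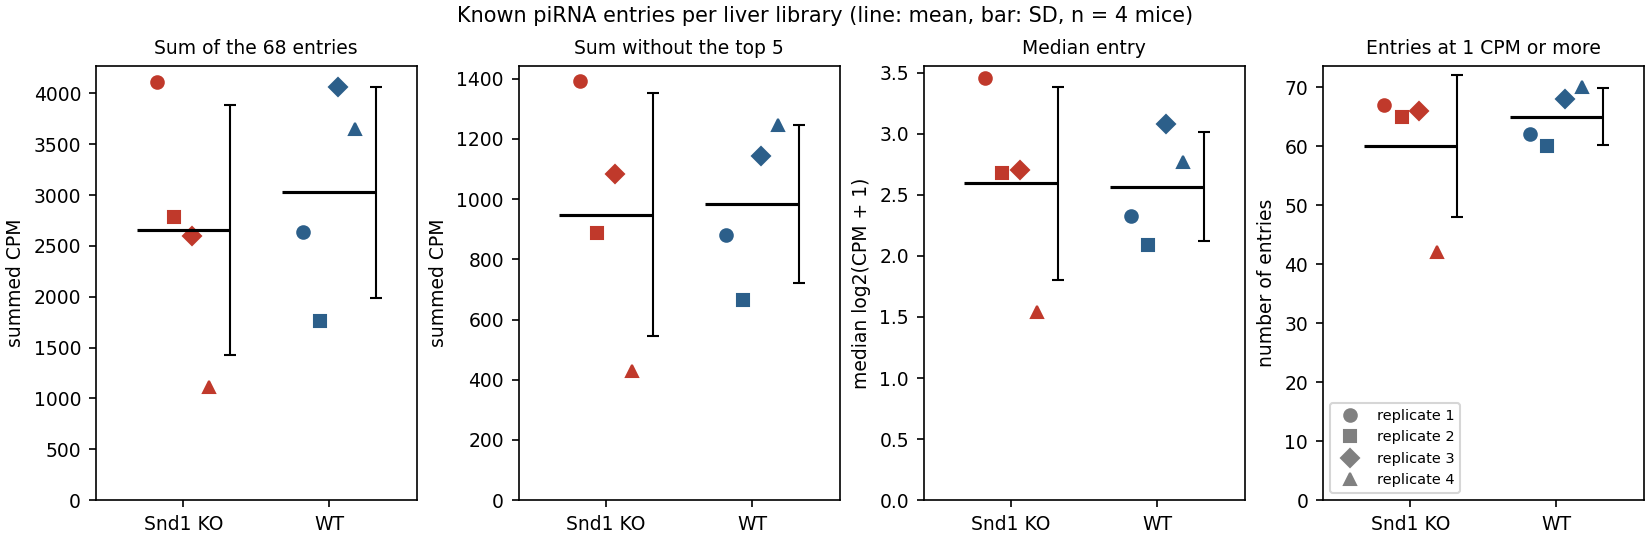
4 measures per library for Snd1 KO (red, left) and WT (blue, right) livers: the summed CPM of the 68 entries, the sum without the 5 most abundant, their median log2(CPM + 1), and the number of known piRNA entries at 1 CPM or more. Symbols are single mice, lines means and bars SD (n = 4); KO replicate 4, the red triangle, is the lowest point of every panel, with 1110 CPM in the first and 42 entries in the last.

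The libraries also differed in how many tags were known miRNAs, and this split crossed the genotypes. In KO replicates 2 and 3 and WT replicates 1 and 2, with the higher share, the log2 ratio of the summed CPM, KO over WT, was 0.29. In KO replicates 1 and 4 and WT replicates 3 and 4, with the lower share, it was -0.56. The number of entries at 1 CPM or more was 4.5 higher in KO than in WT livers among the libraries with the higher share and 14.5 lower among those with the lower share, so that neither measure kept its direction within both sets. KO replicate 4 is in the set with the lower share.

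No known piRNA entry was called different between the genotypes. Each entry was tested with limma, a linear model with a spread moderated across RNAs, on log2(CPM + 1). It was fitted along with the known miRNAs and the families of the Rfam database past the same minimum, 712 named small RNAs in all, with Benjamini-Hochberg adjustment over the 712. At an adjusted p under 0.05, 0 of 68 entries passed, beside 0% of the 712, and the lowest adjusted p of an entry was 0.758. At an unadjusted p under 0.05, 1 of 68 passed, beside 2.81% of the 712; 0 were higher in KO livers, beside 1.69%, and 1 was lower, beside 1.12%. limma-voom on the recovered tags called 0 entries as well, and gave 2 with an unadjusted p under 0.05. The fold changes (log2, KO minus WT) ran between -1.93 and 0.93 with a median of -0.09, beside -0.12 over all 712. 28 of the 68 (41.2%) were above 0, beside 40.2% of all named small RNAs. The median standard error was 0.57 for the entries and 0.40 for all 712.

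The entry with an unadjusted p under 0.05 was mmu_piR_025576, the third by level. It had 359, 46.1, 89.6 and 85.2 CPM in KO livers and 389, 431, 357 and 462 CPM in WT livers. The 4 WT livers were close together and 3 of the 4 KO livers lay far below them, whereas KO replicate 1 lay within the WT range, just above WT replicate 3. The means were 145 ± 144 CPM in KO livers and 409.7 ± 46.0 CPM in WT livers (SD, n = 4 each), a log2 fold change of -1.93 (SE 0.55, 95% interval -3.17 to -0.69, adjusted p = 0.758 from limma). Without KO replicate 1 the difference was -2.51 on the log2 scale (SE 0.34, limma adjusted p = 0.0395), and this entry was then the only call of the 712 (0.14%). Without that library 17 of the 68 entries were above 0, beside 36.2% of the 712, and at an unadjusted p under 0.05, 0 were higher in KO livers, beside 1.97%, and 2 were lower, mmu_piR_025576 and mmu_piR_000585, beside 1.69%. Over the 17 other settings tried the adjusted p lay between 0.0395 and 0.999 and the log2 fold change between -2.51 and -1.53, so the call rests on leaving out that library. KO replicate 1 had the lowest share of known miRNA tags of the 8, 57.9%. With the split by this share as a covariate the log2 fold change was -1.93 (SE 0.52, limma adjusted p = 0.341). Scaled to known miRNA tags it was -1.88 (SE 0.62, limma adjusted p = 0.993). The part that the low share of this 1 library had in the result was not tested.

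**Figure D3:**
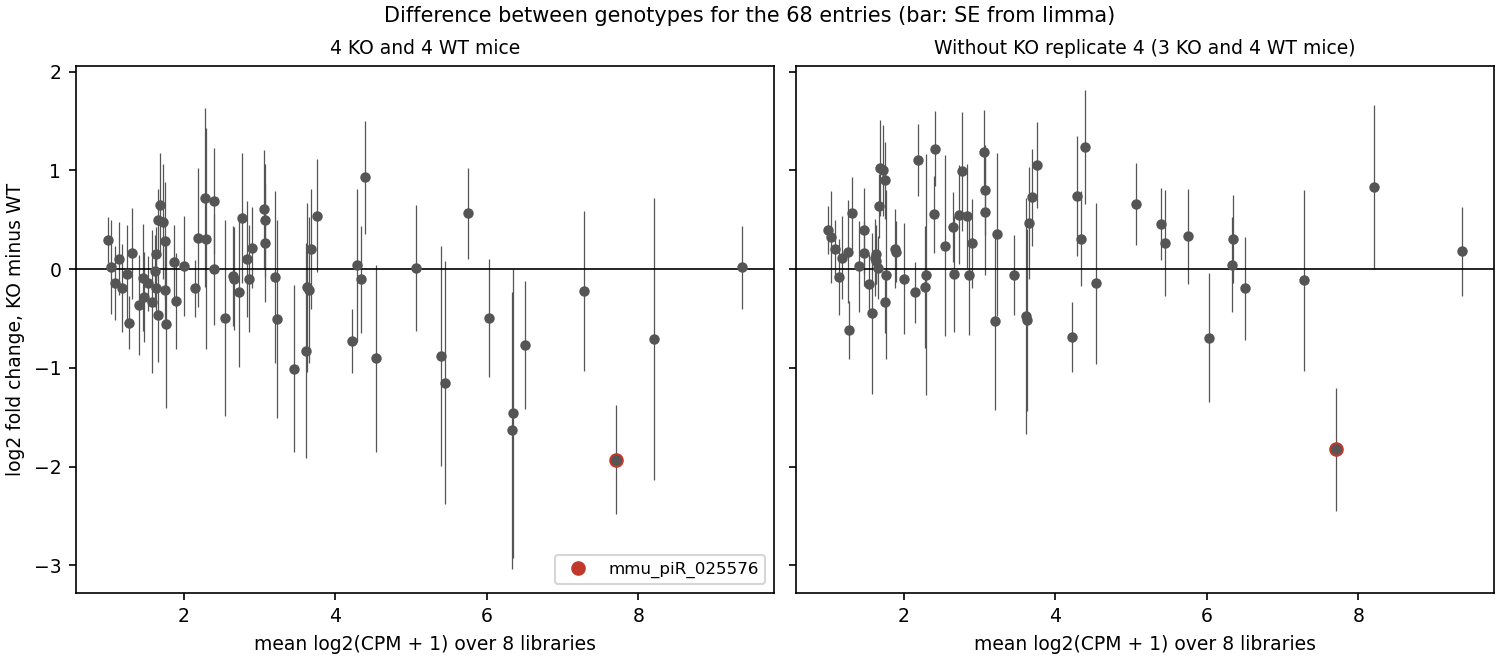
Log2 fold change (KO minus WT) of the 68 entries on the y axis, with all 8 mice (left) and without KO replicate 4 (right). The x axis is their mean log2(CPM + 1) over the 8 libraries. Bars are standard errors from limma and the red dot marks mmu_piR_025576. With all mice 28 of 68 entries are above 0 and the 5 longest bars among the abundant entries are those of entries low in KO replicate 4; without it 46 of 68 are above 0 and mmu_piR_025576 stays the lowest.

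Only 1 entry had KO values that did not overlap the WT values, the rare mmu_piR_039147, which was lower in KO livers. Over the 712, 2.81% had no overlap in either direction, 1.83% with lower and 0.983% with higher KO values. mmu_piR_039147 had 1.34, 1.20, 0.35 and 1.37 CPM in KO livers and 1.39, 2.87, 1.73 and 1.92 CPM in WT livers. The gap between the groups was 1.37 against 1.39 CPM, less than the worth of 1 tag in any library. limma gave a log2 fold change of -0.54 for it, with an SE of 0.27 and an adjusted p of 0.986.

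The entry with the next lowest p, mmu_piR_028252, had 11.5, 12.2, 18.9 and 12.4 CPM in KO livers and 28.1, 27.6, 18.7 and 19.2 CPM in WT livers. The KO values were lower except for KO replicate 3, which lay just above WT replicate 3. The difference was -0.73 on the log2 scale, with an SE of 0.33 and an adjusted p of 0.986 from limma.

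Among entries with a positive difference, mmu_piR_002962 had the largest one, with 67.1, 26.0, 24.2 and 14.4 CPM in KO livers and 13.9, 6.92, 33.4 and 12.5 CPM in WT livers. KO replicate 1 was the highest and WT replicate 3 lay above the other KO livers, so the groups overlapped and the log2 fold change of 0.93 (SE 0.57) did not pass the test. mmu_piR_010309 had 96.1, 38.8, 44.0 and 104.7 CPM in KO livers and 27.7, 31.7, 61.3 and 65.0 CPM in WT livers (log2 fold change 0.56, SE 0.46). mmu_piR_001570 had 8.61, 3.81, 2.09 and 0.87 CPM in KO livers and 1.63, 0.92, 3.82 and 0.80 CPM in WT livers (log2 fold change 0.65, SE 0.52), and mmu_piR_000616 a log2 fold change of 0.49 (SE 0.31). In each of these entries KO replicate 1 was at or near the top of the 8 libraries, as it was for the entries in general. KO replicate 1 was the highest library for 28 of the 68 entries (41.2%), beside 16.4% of the 712.

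For the lead entries the interval of the difference was wide. It was -0.92 to 0.96 around a log2 fold change of 0.02 for mmu_piR_000691, and -3.91 to 2.50 around -0.71 for mmu_piR_005109. These data therefore hold neither a call nor a narrow limit for the most abundant entries. mmu_piR_017405 had a log2 fold change of -0.22 (SE 0.81), with a sign that turned when WT replicate 3 was left out (0.42). mmu_piR_027673 had 121, 56.8, 14.8 and 81.9 CPM in KO livers and 51.1, 75.7, 92.8 and 96.8 CPM in WT livers (log2 fold change -0.50, SE 0.60).

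KO replicate 4 had many entries far below the other 7 livers, in both genotypes. It was the lowest of the 8 libraries for 37 of the 68 entries (54.4%), beside 23.9% of all 712 and 14.9% of the 475 known miRNAs. It was between the others for 28 entries and the highest for 3. The median entry lay 1.19 log2 units below its own median over the 8 libraries in KO replicate 4, a deviation of -1.19, against -0.04 for the known miRNAs. In this library 26 of the 68 entries were under 1 CPM, and 17 of them were at 1 CPM or more in each of the other 7 libraries. No other library had more than 1 such entry.

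On the log2(CPM + 1) scale the largest drops were among the more abundant entries, since rare entries cannot fall as far on it. Another 6 entries, all rarer, were at 0 in KO replicate 4. mmu_piR_034793 had 138, 117, 281 and 0.25 CPM in KO livers and 113, 158, 86.1 and 208 CPM in WT livers, so that KO replicate 4 was 344-fold below the lowest of the other 7 libraries. mmu_piR_032974 had 102, 96.6, 311 and 0.41 CPM in KO livers and 138, 102, 142 and 197 CPM in WT livers, 236-fold below in KO replicate 4. The other 3 KO livers overlapped the WT livers in both entries, and KO replicate 4 alone was below 1 CPM. mmu_piR_012107 had 41.4, 117, 94.5 and 0.54 CPM in KO livers and 115, 68.9, 30.9 and 67.6 CPM in WT livers. mmu_piR_025007 had 77.4, 82.8, 71.7 and 0.95 CPM in KO livers and 87.8, 36.9, 54.4 and 55.7 CPM in WT livers. mmu_piR_002142 had 16.6, 11.6, 14.2 and 0.08 CPM in KO livers and 19.1, 11.4, 8.94 and 22.8 CPM in WT livers. For these 5 entries KO replicate 4 was thus under 1 CPM where every other mouse had 8.94 CPM or more. mmu_piR_000585 had a smaller drop, with 208, 60.8, 84.6 and 20.4 CPM in KO livers and 137, 63.4, 173 and 127 CPM in WT livers.

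The drop was not shared by all entries. In KO replicate 4, mmu_piR_000691 was at 472 CPM, next to 471 CPM in KO replicate 3, and mmu_piR_010309 was at its highest, 104.7 CPM. The entry that went furthest the other way, mmu_piR_037320, had 4.88, 2.51, 0.81 and 40.2 CPM in KO livers and 0.82, 9.10, 2.10 and 2.62 CPM in WT livers; it was chosen after its values were seen. Of the 10 most abundant entries, 5 were lowest in KO replicate 4.

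**Figure D4:**
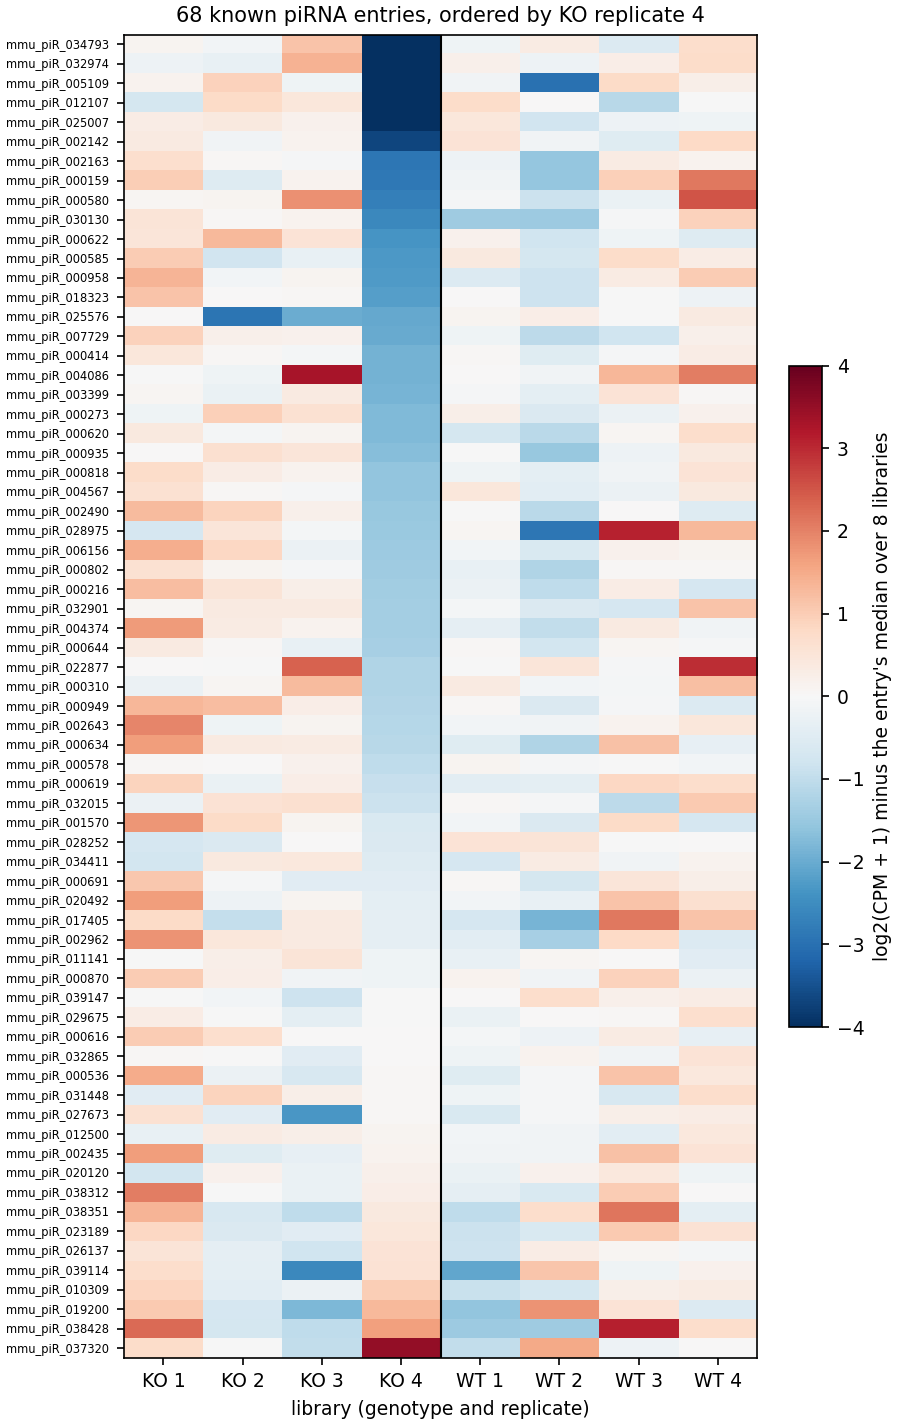
Deviation of log2(CPM + 1) from the entry's own median over the 8 libraries (colour, in log2 units, limited to -4 to 4) for the 68 entries (rows, ordered by their deviation in KO replicate 4) in the 4 KO libraries (left of the line) and the 4 WT libraries (right). The KO replicate 4 column is dark blue for the entries at the top, from mmu_piR_034793 down, and red at the bottom for mmu_piR_037320, while no other column has such a run.

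Snd1 KO and WT livers differed by at least 1 log2 unit in 5 of the 68 entries (7.35%), all lower in KO livers, beside 3.93% of the 712. These were mmu_piR_025576 (-1.93), mmu_piR_032974 (-1.63), mmu_piR_034793 (-1.46), mmu_piR_012107 (-1.15) and mmu_piR_002142 (-1.01). Without KO replicate 4 the last 4 were at 0.04, 0.30, 0.27 and -0.06, and only mmu_piR_025576 stayed below -1, at -1.82. The difference of these 4 entries therefore came with 1 mouse.

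Without KO replicate 4 the balance of signs turned. 46 of the 68 entries were then above 0, beside 44.7% of the 712, and the median log2 fold change was 0.21, beside -0.06 over all 712. No entry was called by limma (0 of 68, beside 0% of the 712). At an unadjusted p under 0.05, 5 entries were higher in KO livers, beside 2.95% of the 712, and mmu_piR_025576 was lower, beside 1.54%. The 5 were mmu_piR_000949, mmu_piR_002490, mmu_piR_000622, mmu_piR_000216 and mmu_piR_007729, of which all but mmu_piR_000949 were chosen after their values were seen. mmu_piR_000949 had 11.7, 10.9, 5.10 and 1.24 CPM in KO livers and 4.28, 2.37, 3.88 and 2.51 CPM in WT livers. Its first 3 KO values were above every WT value and the fourth below all of them, and the log2 fold change was 1.22 without KO replicate 4 (SE 0.38, limma adjusted p = 0.999) and 0.69 with it (SE 0.54). mmu_piR_002490 had 20.5, 15.6, 9.32 and 2.11 CPM in KO livers and 7.79, 3.25, 8.01 and 5.24 CPM in WT livers, with the same order of the groups.

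The libraries low in known piRNA entries were also low in fragments of other structured RNAs. C/D snoRNAs guide the methylation of ribosomal RNA and H/ACA snoRNAs its pseudouridylation, and fragments of both, as of ribosomal RNA itself, are common in small-RNA libraries. In KO replicate 4, 26 of 41 C/D snoRNA families (63.4%), 11 of 15 H/ACA families (73.3%) and 3 of 5 ribosomal RNA families were at their lowest of the 8 libraries. Their median deviations there were -0.73, -0.64 and -1.07 log2 units, beside -1.19 for the piRNA entries. A deviation of -2 or lower was found for 16 piRNA entries (23.5%) and 9 C/D snoRNA families, beside 5.06% of the 712 and 1.47% of the known miRNAs. WT replicate 2, the second lowest library of the entries with a median deviation of -0.42, had -0.23, -0.52 and -0.82 for the same 3 classes. KO replicate 1, the highest library of the entries with 0.60, had 0.25, 0.36 and 0.62.

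**Figure D5:**
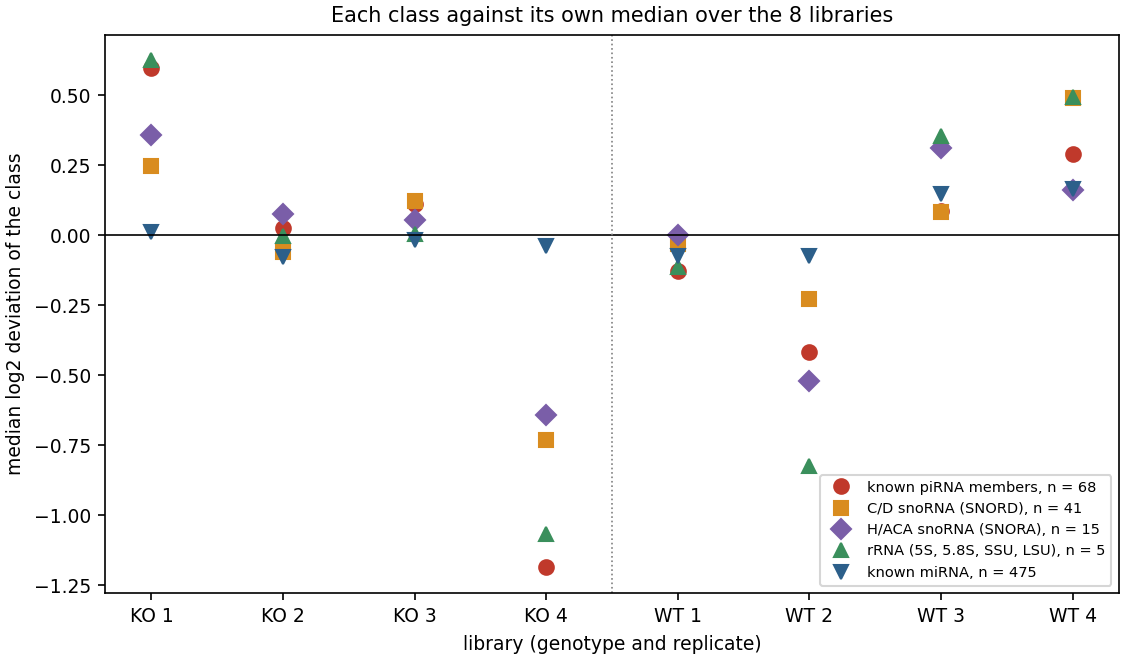
Median deviation from the own median over the 8 libraries, in log2 units, of the 68 known piRNA entries (red circles), 41 C/D snoRNA, 15 H/ACA snoRNA and 5 ribosomal RNA families and 475 known miRNAs in each library, KO left and WT right of the dotted line. The piRNA entries move with the snoRNA and ribosomal RNA classes, down to -1.19 in KO replicate 4, while the miRNAs stay between -0.08 and 0.16.

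Some of these families were also far below the other libraries in KO replicate 4. SNORD104 had 379.8, 414, 420.5 and 17.4 CPM in KO livers and 267, 160.4, 299 and 342 CPM in WT livers. SNORD43 had 101, 423, 405 and 3.90 CPM in KO livers and 346, 165, 115 and 286 CPM in WT livers. These families and the Y RNA were chosen after their values were seen. Other small RNAs went the other way in KO replicate 4. Y RNA fragments, from a family of small non-coding RNAs bound by the Ro60 protein, were at 399 CPM there, against 152, 142 and 139 CPM in the other KO livers and 147, 246, 327 and 315 CPM in WT livers. Predicted piRNAs of the same files, named by the authors' pipeline and not part of the 68, summed to 8456, 3618, 3303 and 10413 CPM in KO livers and 2831, 4292, 7922 and 4261 CPM in WT livers, so KO replicate 4 was their highest library. Whether any of the entries shares sequence with a snoRNA, a ribosomal RNA or a Y RNA was not tested.

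The entries whose pattern over the 8 libraries was most like that of each of the 5 most abundant were found by Pearson r of log2(CPM + 1), as a description over 8 libraries that share depth and composition with both partners. mmu_piR_000691 was most like mmu_piR_020492 among the 67 other entries (r 0.90), like the small subunit ribosomal RNA among 169 Rfam families (r 0.95) and like miR-212-3p among 475 miRNAs (r 0.88). The small subunit ribosomal RNA had 2815, 1021, 873 and 1044 CPM in KO livers and 1044, 882, 1872 and 1496 CPM in WT livers, and the r was 0.95 without KO replicate 4. mmu_piR_005109 was most like mmu_piR_002163 (r 0.97, and 0.90 without KO replicate 4), SNORA54 (r 0.96 with and without it) and miR-362-5p (r 0.90, and 0.60 without it). mmu_piR_025576 had no close partner among the entries (mmu_piR_000585, r 0.64) or the Rfam families (SNORA74, r 0.78). Its nearest miRNA was miR-421-3p (r 0.90 with and without KO replicate 4), with 14.2, 4.14, 5.45 and 6.67 CPM in KO livers and 9.34, 9.48, 15.2 and 15.3 CPM in WT livers. Since this miRNA was picked for its likeness over the same 8 libraries, its high value in KO replicate 1 is no separate observation.

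mmu_piR_017405 was most like mmu_piR_023189 (r 0.81), SNORA70 (r 0.91) and miR-186-5p (r 0.95). mmu_piR_034793 was most like mmu_piR_032974 (r 0.98), SNORD104 (r 0.95) and miR-342-5p (r 0.92), and without KO replicate 4 these were 0.70, 0.20 and 0.35. For this entry the likeness to the snoRNA thus rested on KO replicate 4, whereas for mmu_piR_000691 and mmu_piR_005109 the likeness to an Rfam family did not rest on that library. No other library was left out of these r. mmu_piR_005109 and SNORA54 were both low in WT replicate 2 as well, at 67.8 and 4.82 CPM. Over all pairs of the 68 entries, 2278 in number, the median r was 0.35, and 0.22 without KO replicate 4. The best partner outside the entries was a C/D snoRNA family for 20 of the 68 (29.4%), a class that makes up 6.37% of the candidates, and for 10 without KO replicate 4. A ribosomal RNA family was the best partner for 7 (10.3%, beside 0.776% of the candidates), and for 4 without KO replicate 4. A miRNA was the best partner for 25 (36.8%, beside 73.8%), and for 36 without KO replicate 4.

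Markers of other cells in the tissue were compared beside these values. The 3 erythroid miRNAs of the list summed to 7362 to 15234 CPM in KO livers and 8088 to 17396 CPM in WT livers, with KO replicate 4 at 8245 CPM. The 4 leukocyte miRNAs summed to 407 to 571 CPM in KO livers and 119.9 to 541 CPM in WT livers, with KO replicate 4 at 493 CPM. These sums are carried by miR-451a and miR-150-5p, and single markers differed from them. In WT replicate 1 miR-150-5p was at 9.62 CPM, against 177.7 to 483.6 CPM in the other libraries. In KO replicates 2, 3 and 4 it was above every WT liver. miR-223-3p went the other way, with 53.9, 49.0, 45.8 and 65.4 CPM in KO livers and 62.4, 96.4, 110.6 and 112.4 CPM in WT livers. Its values in KO replicates 1, 2 and 3 were below every WT liver. KO replicate 4 was the lowest of the 8 libraries for miR-142a-3p, at 23.3 CPM against 27.5 to 117.6 CPM, for miR-142a-5p, at 7.54 CPM against 8.65 to 38.7 CPM, and for miR-144-3p, at 7.83 CPM against 9.72 to 35.8 CPM. It was between the others for miR-150-5p, miR-223-3p, miR-451a and miR-486a-5p, and the part of these markers in the result was not tested. Its hepatocyte miRNAs summed to 296103 CPM, between the others. Of the germ cell miRNAs, miR-880-3p, miR-883a-3p and miR-465a-5p were listed in none of the 8 libraries, and the highest level of miR-34c-5p was 0.91 CPM.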

How the data were processed

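The deposited CPM values (headed TPM) scale each entry's tags to 1000000 tags in the library without regard to length. The authors made them from gel-selected RNA of 18 to 30 bases sequenced on the BGISEQ-500 platform. Bowtie and the build GRCm38 are named in the submitters' processing notes, with no version. How the authors counted tags that match several entries is not given in the sources used here. Values have 2 decimals, and all came out as whole tags within 0.0051 CPM, which gave the library totals. The file of KO replicate 1 listed no genomic classes. No molecular identifiers were used, so PCR copies count as tags and depth covers counting error only.

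An id missing from a file was set to 0. Known piRNAs, known miRNAs and Rfam families at 1 CPM or more in at least 4 libraries (712) were fitted together with limma (version 3.58.1, R 4.3.3) with a mean-variance trend on log2(CPM + 1), so that fold changes of low entries are understated. Measures per library were compared by two-sided exact permutation. The fit was checked on simulated data.

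Mice are the replicates (n = 4). Same-numbered libraries deviated together with r of -0.41, 0.14, -0.47 and -0.16, and differently numbered ones with r of -0.46 to 0.51. These values show no pairing by number but cannot exclude one, and the main tests took the mice as unpaired. Named entries were the 10 most abundant, the 5 with the lowest p of each sign, those without overlap, the 5 most variable and those at the edge of the rule, with nearest partners for the top 5. The members and lists were chosen with earlier results of these data known. Alternatives were other scalings, pseudocounts, filters, limma-voom, the miRNA share as a covariate, the replicate block and each library left out.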

Additional observations from a re-analysis of the deposited data

Results flagged for a closer look

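Single libraries lay far from the other 3 of their genotype in 7 of 48 groups checked with Dixon's criterion for groups of 4 samples. Chance alone flags about 1 in 20 such groups, but this rate is no yardstick here, since some of the entries were named for their spread and several share the same low library. KO replicate 4 was the low one for mmu_piR_005109, at 8.50 CPM against 482 to 1028 CPM in the other KO livers, and for mmu_piR_034793, at 0.25 CPM against 117 to 281 CPM. It was the low one also for mmu_piR_025007, at 0.95 CPM against 71.7 to 82.8 CPM, and for mmu_piR_002142, at 0.08 CPM against 11.6 to 16.6 CPM. The number of known piRNA entries at 1 CPM or more was 42 there, against 65 to 67 in the other KO livers.

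KO replicate 3 was set apart in the remaining cases. It had 18.91 CPM of mmu_piR_028252, against 11.5 to 12.4 CPM in the other KO livers, and 0.35 CPM of mmu_piR_039147, against 1.20 to 1.37 CPM. No WT library was set apart in the groups checked.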

How the results depend on the processing

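No entry was called under 16 of the 17 limma alternatives, and mmu_piR_025576 was called without KO replicate 1. The number of entries at an unadjusted p under 0.05 was 1, and 2 with a pseudocount of 0.1 or 0.5, with the filter of 1 CPM in all 8 libraries (35 entries tested) and with limma-voom, and 3 with the miRNA share as a covariate. With a library left out it was 1 to 6, the highest without KO replicate 4, and the number called 0 to 1. The log2 ratio of the sum without the 5 most abundant entries was -0.05, and 0.022 with median-ratio scaling. The difference in entries at 1 CPM or more was -5, and 4.5 and -14.5 within the libraries of higher and lower miRNA share.

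With a library left out, the log2 ratio of the summed CPM lay between -0.48 and 0.066, that without the 5 most abundant between -0.30 and 0.19, the difference of medians between -0.26 and 0.38, that in entries at 1 CPM or more between -7.33 and 1, and that in the share of the 5 most abundant between -4.71 and -1.38 percentage points. Of the 19 named entries 11 kept their sign under every alternative and 8 changed it only with a library left out. Their log2 fold changes lay between -0.33 and 0.18 for mmu_piR_000691, -1.52 and 0.83 for mmu_piR_005109, -0.90 and 0.42 for mmu_piR_017405, -2.30 and 0.30 for mmu_piR_034793, -2.55 and 0.044 for mmu_piR_032974, -0.88 and 0.10 for mmu_piR_027673, -1.82 and 0.27 for mmu_piR_012107 and -1.35 and 0.46 for mmu_piR_025007. Without KO replicate 4 the summed CPM, the sum without the 5 most abundant and the number of entries at 1 CPM or more changed direction (0.066, 0.19 and 1). The cause was not tested.

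The replicate block gave 0 calls and 1 entry at an unadjusted p under 0.05 and changed no other call, and the exact sign-flip tests over 4 numbered pairs cannot reach a p under 0.05. A count model (the edgeR quasi-likelihood test) was not run. The values are rounded to 2 decimals, and the tags recovered from them were tested with limma-voom only. Depth limits entries near 1 CPM, and 8 of the 19 named entries were below 1 CPM in at least 1 library.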
